A study of Mus musculus with 6 samples.

Results

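The 10 genes described here encode the route from the insulin receptor to the glucose transporters of skeletal muscle: the receptors Insr and Igf1r, their inhibitory adaptors Grb10 and Grb14, the kinases Akt1 and Akt2, the Rab-regulating proteins Tbc1d1 and Tbc1d4, and the transporters Slc2a4 and Slc2a1. They were chosen by name, with earlier results of these data known, and all 10 were found among the 43346 genes of the deposited count table. RNA was sequenced from gastrocnemius, a calf muscle, of 6 male mice aged 6 months, 1 library per mouse. All 6 mice were Vdrfl/fl.actin iCre, that is, they carried a vitamin D receptor gene with exon 3 between loxP sites and a Cre recombinase fused to a modified estrogen receptor under the human skeletal actin promoter (ACTA1-cre/Esr1*). The VDR_KO group held 3 mice given tamoxifen, 100 mg/kg in 75 microliters of corn oil with 10% ethanol, on each of 5 days. The VEH_CONT group held 3 mice given the ethanol and corn oil alone. Both groups ate the same diet, with vitamin D3 at 3.4 IU/g and calcium at 0.81%. Muscle was collected after tests of glucose tolerance and strength, which were held 10 days after dosing ended. Tamoxifen was given to the knockout group only, so its own effects, those of active Cre and those of Vdr deletion cannot be told apart here; floxed mice given tamoxifen without Cre were not analysed here. The study asked how loss of the receptor in adult muscle bears on glucose handling, which makes this pathway one of direct interest to it.

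Insulin bound to its receptor activates a lipid kinase whose product recruits and activates the AKT kinases. AKT phosphorylates TBC1D4 and TBC1D1, which otherwise keep Rab GTPases inactive, and vesicles carrying the transporter GLUT4, encoded by Slc2a4, then fuse with the surface membrane of the fibre. Muscle is the main site of insulin-stimulated glucose uptake. The route is mostly controlled by phosphorylation and by the movement of GLUT4, neither of which is seen in RNA.

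The libraries held 30486874 to 39909535 counted reads. Values are given as CPM, read counts scaled to library sizes corrected by TMM, or, where levels of different genes are set beside each other, as the deposited FPKM, which also divides by gene length. Vdr itself had 52, 27 and 40 reads in the knockout libraries, against 46, 48 and 61 in the vehicle libraries. On the log2 scale knockout over vehicle was -0.37 (SE 0.37, edgeR adjusted p = 0.848), so that the gene-level count is only a weak check of the labels. All libraries were rich in RNA of fast skeletal muscle, with the fast fibre troponin Tnnt3 at 20878 ± 3356 FPKM in knockout and 27620 ± 5245 FPKM in vehicle libraries (SD, n = 3 each), which does not tell one fast muscle from another. Knockout replicate 2 stood apart. Myh4, the fastest myosin heavy chain, had 9919, 1876 and 7007 FPKM in the knockout libraries, against 7828, 9888 and 5638 FPKM in the vehicle libraries. In knockout replicate 2 the 10 slow fibre markers summed to 15355 FPKM, while knockout replicates 1 and 3 reached 2033 and 3891 and the vehicle libraries 3600, 535 and 471. Its 10 fast fibre markers summed to 64856 FPKM, while knockout replicates 1 and 3 reached 106263 and 89084 and the vehicle libraries 95881 to 124822. Each estimate for the 10 genes is therefore also given without that library. Since the tissue was sequenced in bulk, fewer cells of a type and less RNA per cell cannot be told apart.

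None of the 10 genes passed the test between the groups after correction for all genes tested. With edgeR's quasi-likelihood test 0 of the 10 had a Benjamini-Hochberg adjusted p below 0.05, where 0% of the 15583 genes tested did, and DESeq2 also called 0 of the 10, where it called 0.700% of genes. At an unadjusted p below 0.05 there were 3, Grb14, Tbc1d4 and Grb10, each with a higher estimate in knockout, where 4.02% of all genes were higher at that level and 7.44% differed in either direction. The 3 knockout libraries lay wholly above the 3 vehicle libraries for 2 of the 10, Grb14 and Tbc1d4, where 5.83% of all genes did, and wholly below for 0, where 6.48% did. Without knockout replicate 2 edgeR called 0 of the 10 and 0.0376% of all genes. Estimates were above 0 for 8 of the 10, where 52.9% of all genes were, with a median log2 fold change of 0.28 beside 0.021 over all genes tested.

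**Figure D1:**
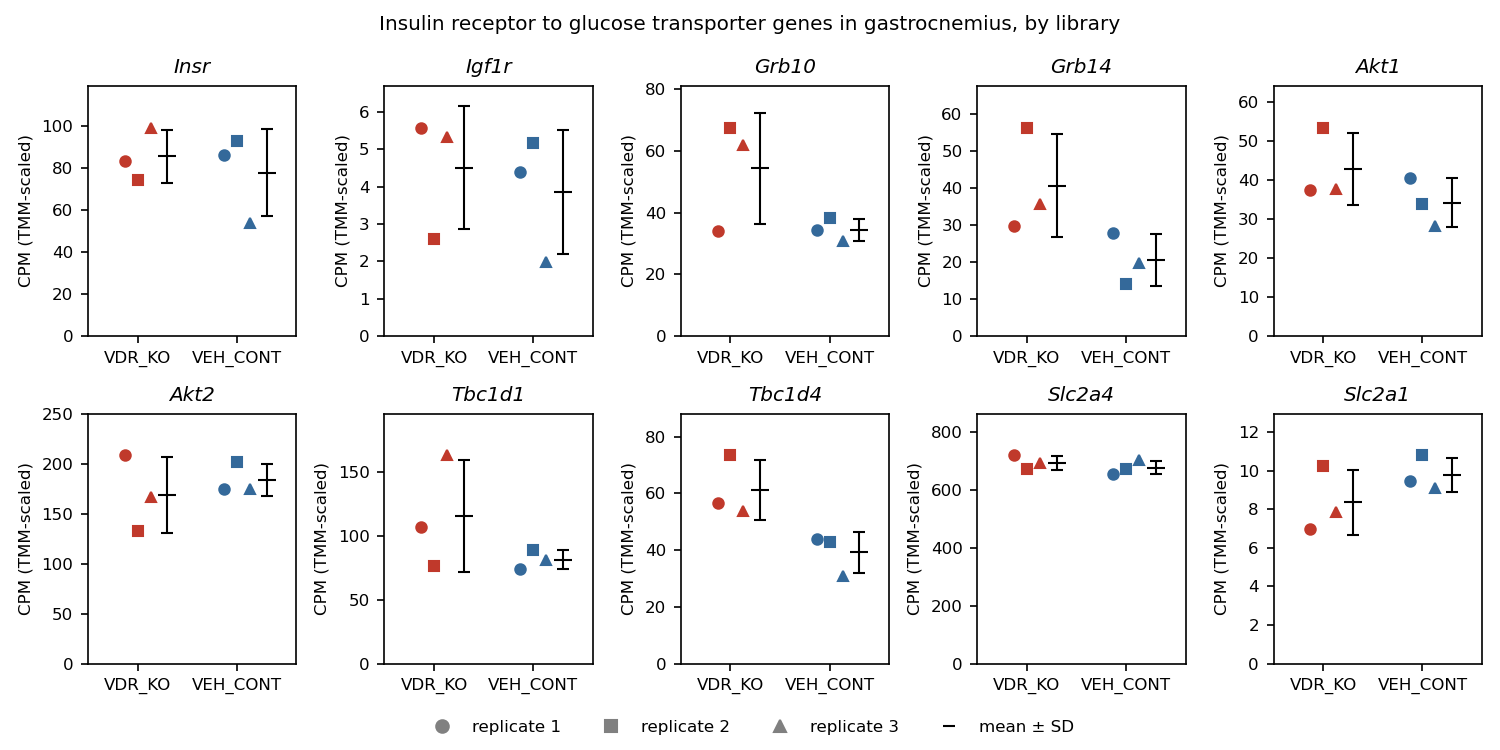
TMM-scaled CPM (vertical axes, from 0) of each of the 10 genes, VDR_KO libraries in red and VEH_CONT libraries in blue; symbols mark the replicate and bars the mean ± SD of 3 libraries. Grb14 and Tbc1d4 are the 2 genes whose groups do not overlap, and Slc2a4 lies between 657 and 720 CPM in all 6 libraries.

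Ordered by FPKM over the 6 libraries, which compares levels per length, Slc2a4 stood far above the rest at 198 ± 14.5 FPKM (SD, n = 6), followed by Akt2 at 24.6 ± 2.43 and Tbc1d1 at 13.9 ± 5.26. Each was above the next in all 6 libraries as far as Tbc1d1. Tbc1d1 was above Akt1 in 5 of 6 libraries, Akt1 above Insr in 4 and Insr above Tbc1d4 in 5, so this middle order, at means of 9.52 for Akt1, 8.51 for Insr and 6.65 FPKM for Tbc1d4, was not settled beyond the spread. Tbc1d4 exceeded Grb10, at 5.01 FPKM, in all 6. Grb10 and Grb14 (4.38 FPKM) could not be ranked, with Grb10 above in 3 of 6 libraries, and Grb14 was above Slc2a1 (3.20 FPKM) in 4. Igf1r was lowest, at 0.926 ± 0.324 FPKM, below Slc2a1 in all 6 libraries. The listed gene models of Insr and Igf1r end 28861 and 6888 bases short of the 3′ ends in GENCODE M21. That of Slc2a1 ends 653 bases short there, and that of Tbc1d1 begins 3146 bases short at the 5′ end. Reads beyond the listed ends would not have been counted, and the listed lengths leave out those stretches too. How this bears on the FPKM of these genes was not tested.

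The deleted gene encodes a transcription factor that binds, as a dimer with a retinoid X receptor, a pair of half-sites in the same orientation 3 bases apart. Start regions were therefore searched for the half-site spellings AGGTCA, the variant GGGTCA, the variant AGTTCA and the variant GGTTCA, on both strands. Windows from 250 bases before to 50 bases after each RefSeq start (GRCm38.p6) were available for 8 of the 10 genes, all but Insr and Slc2a4, in 14 windows. Grb14 and Tbc1d4 are shown because they are the genes whose groups did not overlap, and Akt1 because its window held the most half-sites, written in capitals; each runs 5′ to 3′ along the gene.
Grb14, chr2:65022717-65023016 (minus strand): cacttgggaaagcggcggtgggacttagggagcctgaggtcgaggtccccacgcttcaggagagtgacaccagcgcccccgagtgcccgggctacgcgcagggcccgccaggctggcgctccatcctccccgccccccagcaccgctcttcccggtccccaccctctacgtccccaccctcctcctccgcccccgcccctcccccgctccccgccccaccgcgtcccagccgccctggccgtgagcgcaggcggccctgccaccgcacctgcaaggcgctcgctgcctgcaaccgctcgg
Tbc1d4, chr14:101609142-101609441 (minus strand): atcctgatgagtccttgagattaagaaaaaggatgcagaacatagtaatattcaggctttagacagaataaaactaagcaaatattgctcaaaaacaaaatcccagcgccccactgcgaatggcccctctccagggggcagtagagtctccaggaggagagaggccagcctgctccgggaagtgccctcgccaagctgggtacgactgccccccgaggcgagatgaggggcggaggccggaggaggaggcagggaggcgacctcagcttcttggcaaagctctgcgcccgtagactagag
Akt1, chr12:112674835-112675134 (minus strand): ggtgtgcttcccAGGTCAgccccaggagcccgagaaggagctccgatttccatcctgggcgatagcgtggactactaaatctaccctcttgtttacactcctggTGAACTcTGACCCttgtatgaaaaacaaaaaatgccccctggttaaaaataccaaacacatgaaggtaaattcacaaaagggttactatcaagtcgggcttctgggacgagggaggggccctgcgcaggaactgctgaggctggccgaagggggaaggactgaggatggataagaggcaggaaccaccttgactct
The windows of Grb14 and Tbc1d4 held 0 half-sites. Half-sites were present in 3 of the 14 windows, 1 each of Akt1, Akt2 and Igf1r, where 43.7% of the 32851 windows in the table had at least 1. In Akt1 there were 3, which began 238, 146 and 139 bases before the start. The spaced pair was in 0 of the 14 windows and in 0.0396% of all windows. These matches are descriptions of the letters in these windows only.

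Insr (ENSMUSG00000005534, mm10 chr8:3150922-3279617), the insulin receptor, binds insulin at the fibre surface and phosphorylates the adaptors that carry the signal inward. It had 83.2, 74.4 and 99.2 CPM in the knockout libraries, against 86.3, 92.7 and 54.0 CPM in the vehicle libraries. The groups overlapped, and the lowest value of the 6 was in vehicle replicate 3. The estimated log2 difference was 0.14 (SE 0.22; edgeR adjusted p = 0.910), with a 95% interval of -0.36 to 0.64. Without knockout replicate 2 it was 0.23, and without vehicle replicate 3 it turned to -0.067.

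Igf1r (ENSMUSG00000005533, mm10 chr7:67952859-68226780), the related receptor for insulin-like growth factor 1, was scarce. Its counts were 192, 90 and 200 reads in the knockout libraries, against 142, 189 and 76 in the vehicle libraries. The smallest, 76 reads, has an exact Poisson 95% interval of 59.9 to 95.1 reads, which covers counting error only. In CPM the knockout libraries had 5.58, 2.6 and 5.34, against 4.39, 5.18 and 1.98 in the vehicle libraries, and each group held 1 low library. Its log2 fold change stood at 0.23 (SE 0.41; edgeR adjusted p = 0.924), with a 95% interval of -0.69 to 1.14. It was 0.50 when knockout replicate 2 was left out and -0.088 when vehicle replicate 3 was. Per length, Insr exceeded Igf1r in every library, by 6.95, 13.3 and 8.66 times in knockout, against 9.15, 8.34 and 12.7 times in vehicle libraries.

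Grb14 (ENSMUSG00000026888, mm10 chr2:64912476-65024987) is an adaptor that binds the activated insulin receptor and restrains its kinase. Knockout libraries had 29.9, 56.4 and 35.7 CPM of Grb14, against 28.0, 14.1 and 19.7 CPM in vehicle libraries. The groups did not overlap, but knockout replicate 1 and vehicle replicate 1 were close together, and knockout replicate 2 was far above the rest. Group means were 40.7 ± 13.9 CPM in knockout and 20.6 ± 6.98 CPM in vehicle libraries (SD, n = 3 each). The fold of knockout over vehicle was 1.98 (95% interval 1.24 to 3.15). The log2 fold change of 0.98 (SE 0.30) was the largest of the 10 and had an unadjusted p of 0.00901, rank 231 among all genes, and an edgeR adjusted p of 0.604. It was 0.67 when knockout replicate 2 was left out, 0.76 without vehicle replicate 2 and 1.26 without vehicle replicate 1. The slow fibre markers were, like Grb14, highest in knockout replicate 2, but the order of the libraries was not the same. Their list mean, in log2 CPM relative to all 6 libraries, was 0.075, 2.45 and 0.78 in the knockout libraries. In the vehicle libraries it was 0.76, -1.94 and -2.13. With that mean as a covariate the Grb14 estimate was 0.31 (SE 0.26, edgeR adjusted p = 1.00), less than the 0.98 without it. The list mean was itself mostly higher in knockout libraries, so this fit cannot separate group from slow fibre content. With it 264 of the 15583 genes tested had an unadjusted edgeR p below 0.05, where 1159 did without it. The same limit holds for every estimate given with this covariate. The part of slow fibre content in the Grb14 values was not tested.

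Grb10 (ENSMUSG00000020176, mm10 chr11:11930508-12038683), a close relative of Grb14 with the same inhibitory role and an imprinted gene, had 33.9, 67.6 and 61.8 CPM in the knockout libraries, against 34.2, 38.1 and 30.7 CPM in the vehicle libraries. Knockout replicates 2 and 3 were above all vehicle libraries, whereas knockout replicate 1 lay among them. The mean was 54.4 ± 18 CPM in knockout and 34.4 ± 3.68 CPM in vehicle libraries (SD, n = 3 each). Knockout over vehicle was 0.66 on the log2 scale (SE 0.25; edgeR adjusted p = 0.643), with a 95% interval of 0.11 to 1.22 and an unadjusted edgeR p of 0.0241. It was 0.91 without knockout replicate 1, 0.48 without knockout replicate 2 and 0.35 (SE 0.35) with the slow fibre list mean as a covariate. The same pair of knockout libraries, replicates 2 and 3, held the most macrophage and fibroblast marker RNA. The 10 macrophage markers, of which 0 were at 0 in all libraries, summed to 27.5, 105 and 90.3 FPKM in the knockout libraries, against 40.3, 35.6 and 24.9 FPKM in the vehicle libraries, and the 8 fibroblast markers to 162, 488 and 335 FPKM, against 228, 258 and 205 FPKM. Their part in the Grb10 values was not tested. Per length, Grb14 over Grb10 was 1.12, 1.06 and 0.731 in knockout, against 1.03, 0.468 and 0.81 in vehicle libraries, and these ratios overlapped.

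Akt2 (ENSMUSG00000004056, mm10 chr7:27591552-27640826), the AKT kinase chiefly tied to insulin-stimulated glucose uptake, was the second most abundant of the 10 per length. It had 209, 133 and 167 CPM in the knockout libraries, against 175, 202 and 175 CPM in the vehicle libraries. Knockout libraries held both the highest and the lowest value, the lowest in replicate 2. The estimated log2 difference was -0.12 (SE 0.20; edgeR adjusted p = 0.919), with a 95% interval of -0.58 to 0.34. It turned to 0.029 without knockout replicate 2 and to 0.12 with the slow fibre covariate.

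Akt1 (ENSMUSG00000001729, mm10 chr12:112653821-112674884), whose product is better known for growth and survival signalling, had 37.5, 53.5 and 37.6 CPM in the knockout libraries, against 40.6, 33.8 and 28.1 CPM in the vehicle libraries. Only knockout replicate 2 was above all vehicle libraries. The estimated log2 difference was 0.33 (SE 0.20; edgeR adjusted p = 0.748), with a 95% interval of -0.13 to 0.79. It was 0.14 without knockout replicate 2 and -0.069 with the slow fibre covariate. Akt2 exceeded Akt1 per length in all libraries, by 3.20, 1.42 and 2.55 times in knockout, against 2.48, 3.44 and 3.58 times in vehicle libraries. The smallest excess was in knockout replicate 2, the library with the most slow fibre RNA.

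Tbc1d4 (ENSMUSG00000033083, mm10 chr14:101442360-101609191), also called AS160, is the AKT substrate that holds GLUT4 vesicles inside the fibre until it is phosphorylated. Its values were 56.8, 73.4 and 53.7 CPM in the knockout libraries, against 43.9, 42.8 and 30.9 CPM in the vehicle libraries. All 3 knockout values lay above all 3 vehicle values, with a clear gap between the nearest. The means were 61.3 ± 10.6 CPM in knockout and 39.2 ± 7.21 CPM in vehicle libraries (SD, n = 3 each). The fold of knockout over vehicle was 1.56 (95% interval 1.15 to 2.12). The log2 fold change of 0.65 (SE 0.20) had the smallest p of the 10, 0.00887 unadjusted, and an edgeR adjusted p of 0.604. It ran from 0.49 to 0.73 when each library was left out in turn, the low end of 0.49 when knockout replicate 2 was left out, and was 0.36 (SE 0.24) with the slow fibre covariate.

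Tbc1d1 (ENSMUSG00000029174, mm10 chr5:64159451-64351486), the paralog that answers to both AKT and the energy sensor AMP kinase and is typical of fast muscle in the mouse, had 107, 76.3 and 163 CPM in the knockout libraries, against 74.1, 88.7 and 81.3 CPM in the vehicle libraries. Knockout replicates 1 and 3 were above all vehicle libraries and knockout replicate 2 was not. Its log2 fold change stood at 0.51 (SE 0.26; edgeR adjusted p = 0.697), with a 95% interval of -0.072 to 1.08, and it depended on knockout replicate 3, without which it was 0.17. Without knockout replicate 2 it was 0.73, and with the slow fibre covariate 0.80 (SE 0.32, unadjusted p = 0.0349, edgeR adjusted p = 1.00). Per length, Tbc1d4 over Tbc1d1 was 0.493, 0.896 and 0.307 in knockout, against 0.552, 0.449 and 0.354 in vehicle libraries. Tbc1d1 was thus the more abundant of the pair in all 6 libraries, by the narrowest margin in knockout replicate 2.

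Slc2a4 (ENSMUSG00000018566, mm10 chr11:69942539-69948188), the insulin-regulated transporter GLUT4, was the steadiest of the 10. It had 720, 671 and 693 CPM in the knockout libraries, against 657, 674 and 703 CPM in the vehicle libraries. The groups overlapped, and the coefficient of variation was 3.52% in knockout and 3.46% in vehicle libraries, where those of the other 9 genes ran from 14.7% to 38.1% in knockout and from 8.59% to 43.3% in vehicle libraries. Knockout replicate 2, with its high slow fibre content, stood at 671 CPM. In the deposited FPKM, which carry no TMM scaling, that library was the highest of the 6, at 219, where the lowest was 182. Knockout over vehicle was 0.035 on the log2 scale (SE 0.19; edgeR adjusted p = 0.979), with a 95% interval of -0.40 to 0.47, and 0.058 without knockout replicate 2. The interval, which uses a spread shared with other genes, covers folds of 0.76 to 1.38. Differences within that range remain possible. The interval is not a limit of detection: Grb14, at a fold of 1.98, had an edgeR adjusted p of 0.604 and was not called.

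Slc2a1 (ENSMUSG00000028645, mm10 chr4:119108711-119137330), the basal transporter GLUT1, is also known from the cells of blood vessels and nerve sheath. It had 6.98, 10.2 and 7.85 CPM in the knockout libraries, against 9.47, 10.8 and 9.10 CPM in the vehicle libraries. Knockout replicates 1 and 3 were below all vehicle libraries and knockout replicate 2 was not. The estimated log2 difference was -0.23 (SE 0.21; edgeR adjusted p = 0.827), with a 95% interval of -0.70 to 0.24, and -0.40 without knockout replicate 2. The 10 endothelial markers summed to between 72.8 and 101 FPKM in knockout and between 76.8 and 93.1 FPKM in vehicle libraries, and the 8 Schwann cell and nerve sheath markers to between 23.2 and 44.5 FPKM and between 33.5 and 63.1 FPKM. Of the 10 endothelial markers, Cldn5, a tight junction protein of vessels, was the only one whose groups did not overlap, with 6.45, 7.09 and 7.37 CPM in knockout, against 10.8, 13.5 and 15.1 CPM in vehicle libraries. Its estimated log2 difference was -0.91 (SE 0.20; edgeR adjusted p = 0.408), and it was singled out after its values were seen. Estimates were above 0 for 7 of the 10 endothelial markers and for 0 of the 8 Schwann cell and nerve sheath markers. The median log2 fold changes of these lists were 0.13 and -0.65. Over all genes tested, 52.9% of estimates were above 0. None of the genes on these lists was at 0 in all libraries, and their part in the Slc2a1 values was not tested. An antisense gene, Gm12868, shares 2.99% of the exon bases of Slc2a1. Slc2a4 exceeded Slc2a1 per length 84.7, 53.8 and 72.4 times in knockout, against 56.9, 51.2 and 63.4 times in vehicle libraries.

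**Figure D2:**
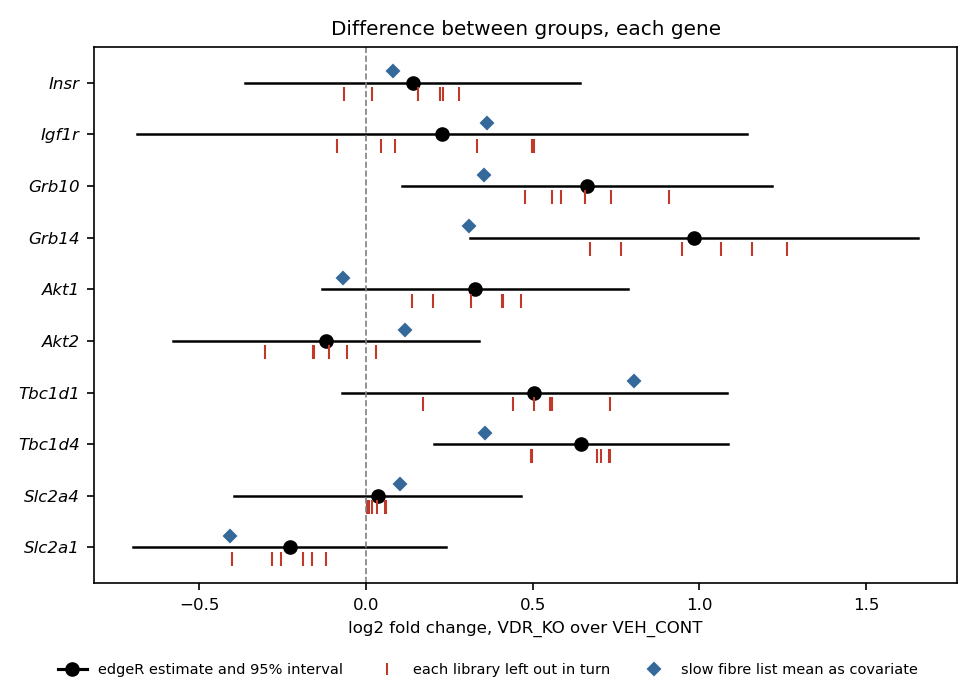
Log2 fold change of VDR_KO over VEH_CONT (horizontal axis) for each of the 10 genes: black points and lines are the edgeR estimate and its 95% interval, red ticks the estimates with each library left out, and blue diamonds the estimate with the slow fibre list mean as a covariate. Intervals of Grb10, Grb14 and Tbc1d4 lie above 0, at unadjusted p of 0.0241, 0.00901 and 0.00887, and the Grb14 diamond at 0.31 lies well below its point at 0.98.

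Set side by side, the 5 pairs of related genes kept their order per length in all libraries except Grb14 and Grb10. The group ranges of all 5 ratios overlapped. Akt2 over Akt1 averaged 2.39 ± 0.898 in knockout and 3.17 ± 0.598 in vehicle libraries, and Slc2a4 over Slc2a1 averaged 70.3 ± 15.6 and 57.2 ± 6.1 in the same groups (SD, n = 3 each). Without knockout replicate 2 the knockout mean of Akt2 over Akt1 was 2.88, nearer to that of the vehicle libraries.

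**Figure D3:**
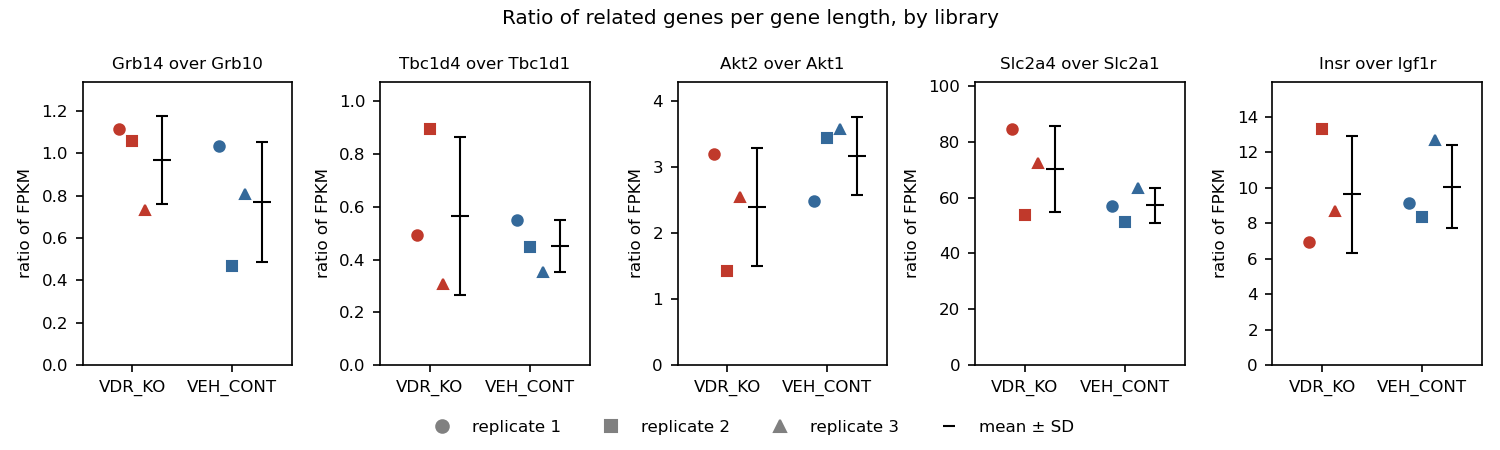
Ratio of FPKM (vertical axes, from 0) of 5 pairs of related genes in each library, VDR_KO in red and VEH_CONT in blue, with mean ± SD of 3 libraries. Knockout replicate 2 has the highest Tbc1d4 over Tbc1d1, 0.896, and the lowest Akt2 over Akt1, 1.42.

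Across libraries the genes did not move as one. Knockout replicate 2 had the highest CPM of 4 of the 10, Grb10, Grb14, Akt1 and Tbc1d4, and the lowest of Akt2. Vehicle replicate 3 had the lowest CPM of 5, Insr, Igf1r, Grb10, Akt1 and Tbc1d4. With each gene's log2 CPM centred and scaled to unit SD over the 6 libraries, the closest pair was Insr and Igf1r, with a root mean square difference of 0.391 SD, followed by Akt1 and Tbc1d4, at 0.405. The same measure was taken over genes at a mean of 1 CPM or more, leaving out those with Gm, Rik or pseudogene names. Grb14 was closest to Hmgb3 (0.04), a chromatin protein, and St3gal5 (0.0584), the ganglioside GM3 synthase. Tbc1d4 was closest to Gda (0.0683), guanine deaminase, and Cdc37l1 (0.112), an HSP90 partner. Grb10 was closest to Dok1 (0.1), a docking protein of tyrosine kinases, and B3galnt1 (0.125), a glycosyltransferase. These are descriptions over 6 libraries, of genes picked as the closest among many.

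**Figure D4:**
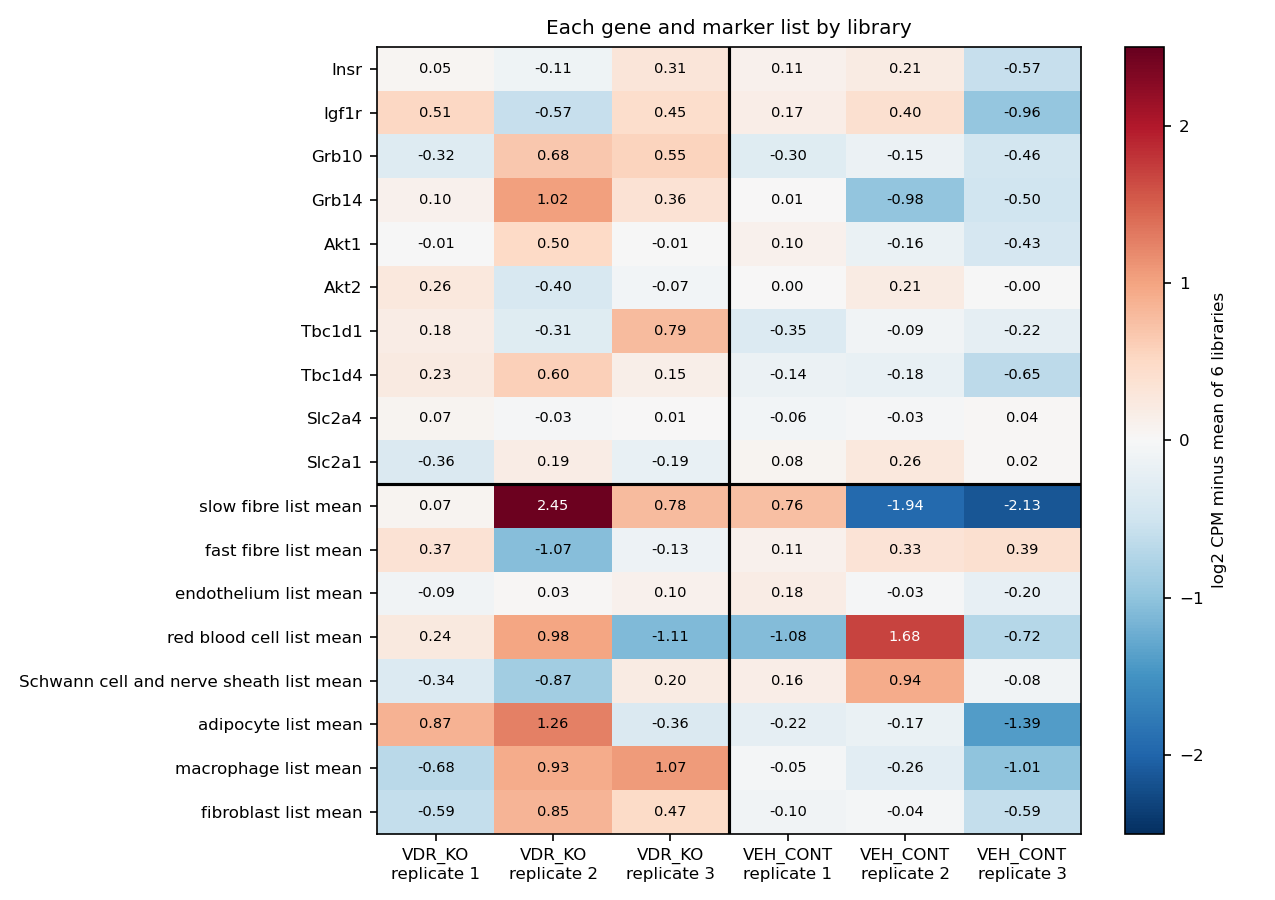
Log2 CPM minus the mean of the 6 libraries (colour and printed value) for the 10 genes, above the line, and for the mean of each cell type or fibre type marker list, below it; VDR_KO libraries are left of the vertical line. Grb14 runs from 1.02 in knockout replicate 2 to -0.98 in vehicle replicate 2, while the slow fibre list runs from 2.45 in knockout replicate 2 to -2.13 in vehicle replicate 3.

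The wider pathway was described with 106 further genes of insulin signalling and glucose uptake, of which 102 were tested. With edgeR 0 of them passed the adjusted threshold, where 0% of all genes did. At an unadjusted p below 0.05, 5 were higher and 6 lower in knockout, where 4.02% and 3.42% of all genes were. DESeq2 called 3, among them Pik3r1, which was higher, and Slc2a3, which was lower, where it called 0.700% of all genes. The median log2 fold change of the 102 was -6.68e-05, beside 0.021 over all genes tested, and estimates were split evenly, 51 higher and 51 lower.

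Between receptor and AKT, Pik3r1, the regulatory subunit of the lipid kinase, had the smallest p of the list: 53.8, 55.7 and 57.7 CPM in the knockout libraries, against 27.2, 25.1 and 27.3 CPM in the vehicle libraries. Its groups lay far apart, with a log2 fold change of 1.07 (SE 0.14; edgeR adjusted p = 0.077, DESeq2 adjusted p = 1.43e-06). With the slow fibre covariate the Pik3r1 estimate was 1.04. Irs2, a docking protein of the receptor, had 33.7, 17.6 and 41.0 CPM in knockout, against 53.9, 113 and 29.5 CPM in vehicle libraries. Its groups overlapped, and the log2 fold change was -1.09 (SE 0.49; edgeR adjusted p = 0.674), with -0.45 without vehicle replicate 2. The second regulatory subunit of the lipid kinase, Pik3r2, was at 0.37 (SE 0.20).

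Around AKT, Rictor, a subunit of the complex that phosphorylates AKT, had 23.4, 12.3 and 23.8 CPM in knockout, against 23.8, 43.7 and 30.0 CPM in vehicle libraries. Its groups were separated by a very narrow gap, and the log2 fold change was -0.71 (SE 0.30; edgeR adjusted p = 0.651), with -0.10 under the slow fibre covariate. The atypical protein kinase C gene Prkci was at 0.71 (SE 0.32) and the pseudokinase Trib1 at -0.70 (SE 0.28). Prkag3, the AMP kinase subunit typical of fast glycolytic muscle, had 196, 38.7 and 115 CPM in knockout, against 194, 291 and 318 CPM in vehicle libraries. It was lowest in knockout replicate 2, and its log2 fold change of -1.20 (SE 0.51; edgeR adjusted p = 0.665) was -0.79 without that library and -0.36 with the slow fibre covariate. Stk11, the kinase that activates AMP kinase, was at -0.23 (SE 0.15).

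Among the GTPases that TBC1D4 and TBC1D1 act on, Rab8a, which serves GLUT4 movement in muscle cells, had 12.4, 17.1 and 13.2 CPM in knockout, against 10.0, 9.61 and 10.5 CPM in vehicle libraries. The groups did not overlap, and the log2 fold change was 0.50 (SE 0.19; edgeR adjusted p = 0.643). The other Rab genes on the list did not share that rise. Rab10, Rab13, Rab8b and Rab28 were at -0.25, -0.31, -0.048 and -0.071, and Rab14 was at 0.15 (SE 0.18). Of the other small GTPases and effectors on the list, Ralb was at 0.61 (SE 0.29). None of the 16 transporter vesicle genes had an unadjusted edgeR p below 0.05, where 7.44% of all genes did. The nearest were the clathrin heavy chain Cltc at -0.49 (SE 0.23) and the exocyst subunit Exoc7 at -0.49 (SE 0.23). Of the 16, 3 lay wholly lower in knockout, Cltc among them, where 6.48% of all genes did. Wholly higher were 0, where 5.83% of all genes were. On the ligand side, the binding proteins Igfbp6 and Igfbp4 were at 0.82 (SE 0.34) and 0.52 (SE 0.24), and at 0.031 and 0.05 with the slow fibre covariate.

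At the transport step, Slc2a3, the high-affinity transporter GLUT3, had 13.8, 5.52 and 13.2 CPM in knockout, against 20.0, 30.3 and 31.2 CPM in vehicle libraries. All 3 knockout libraries were below all 3 vehicle libraries, lowest in replicate 2. The log2 fold change was -1.32 (SE 0.34; edgeR adjusted p = 0.526, DESeq2 adjusted p = 0.0222), with -1.01 without knockout replicate 2 and -0.63 with the slow fibre covariate.

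**Figure D5:**
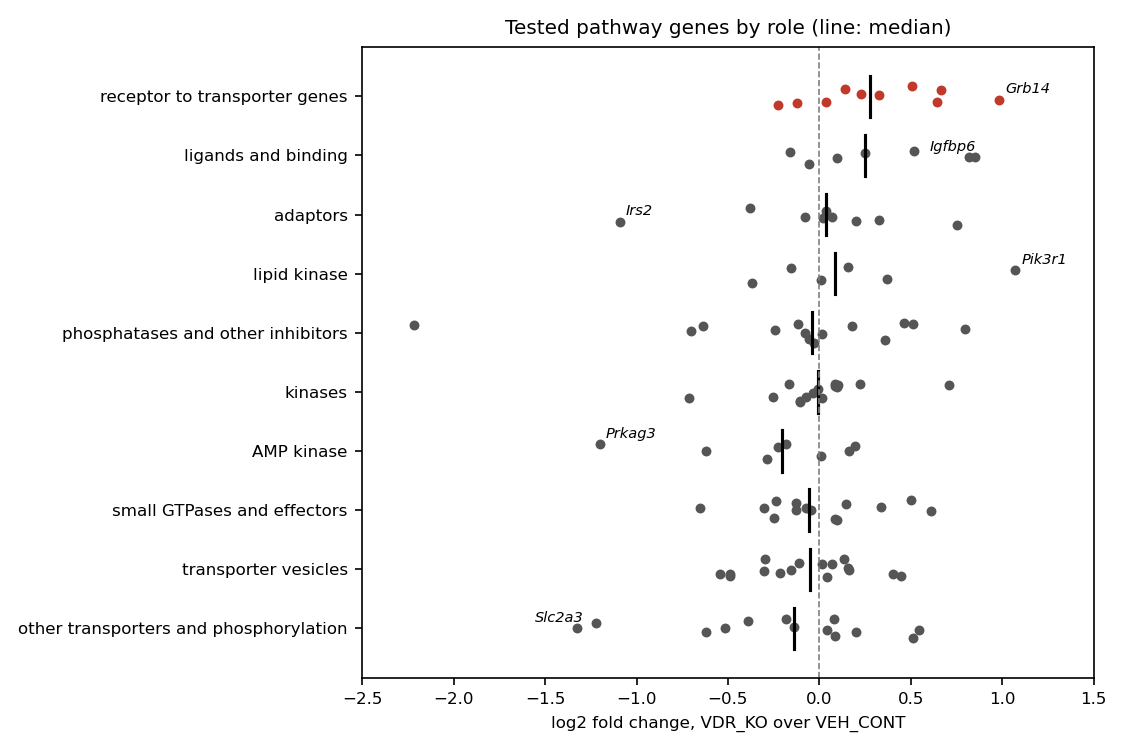
Log2 fold change of VDR_KO over VEH_CONT (horizontal axis) for the 10 receptor to transporter genes (red) and the 102 further tested pathway genes (grey) by role; each point is a gene, vertical bars are medians and selected genes beyond 0.8 are named. The red points have a median of 0.28, and Pik3r1 at 1.07 and Slc2a3 at -1.32 are among the genes that DESeq2 called.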

How the data were processed

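Polyadenylated RNA was sequenced from 6 gastrocnemius muscles with a TruSeq Stranded mRNA protocol, per the labels. The deposited table gives raw read counts per gene, made with STAR 2.6.1c and featureCounts (Subread 1.5.1) on mm10, per the submitters' processing notes; which annotation release and strand setting were used is not given in the sources used here. The deposited FPKM equalled count over listed length (plus 1 base) and column total within 0.1% for 100% of values above 0, so they carry no further normalization.

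The test was edgeR 4.0.16, in R 4.3.3: filterByExpr (minimum count 10, minimum total 15) kept 15583 genes, TMM factors ran from 0.912 to 1.13, and a robust quasi-likelihood test compared knockout with vehicle, two-sided, with Benjamini-Hochberg adjustment over all genes kept and a threshold of 0.05. Standard errors came from the F statistic. Alternatives used DESeq2 1.42.0, limma 3.58.1 (voom, and log2 FPKM with pseudocounts of 0.1 and 1), other scalings and filters, a slow fibre covariate and each library left out. A count of 3, the floor, was 0.0782 to 0.0928 CPM. GENCODE M21 and RefSeq tables share the assembly of the counts; 6 of the 10 genes had the same bounds in M21.

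Each sample title carries its own number and was taken as 1 mouse, which the labels do not state outright; p-values measure the spread between these samples, and replicate numbers are names only. The 10 genes, the 106 pathway genes and the marker lists were chosen with earlier results of these data known. Named were all 10 genes, the 2 pathway genes of smallest p in each role, and, for genes with an unadjusted p below 0.05, the 2 genes of most similar pattern. Of each marker list the 2 genes of highest FPKM were named. The other Rab genes of the pathway list were given beside Rab8a. A few genes that these rules name are not reported here. No p was adjusted over a list alone.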

Additional observations from a re-analysis of the deposited data

How the results depend on the processing

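In all 16 alternative fits, and at an adjusted p below 0.1, 0 of the 10 receptor to transporter genes were called; their adjusted p ran from 0.131 to 1.00. Genes called among all tested, 0 in edgeR, were 109 with DESeq2, 4 with its size factors in edgeR, 29 with no filter, 7 at an adjusted p below 0.1, and 0 to 24 with each library left out (24 without knockout replicate 1 and 6 without knockout replicate 2). Pathway genes called, 0 in edgeR, were 3 with DESeq2, 1 with no filter and 1 at an adjusted p below 0.1; these last 2 counts were both Pik3r1. Of 448 alternative values for the 28 named genes, 6 turned direction: Akt1 (-0.069), Akt2 (0.12) and Ralb (-0.044) with the slow fibre covariate, and Insr (-0.067 to 0.28), Igf1r (-0.088 to 0.50) and Akt2 (-0.30 to 0.029) with 1 library left out at a time. The cause was not tested. No paired analysis was possible because the labels give the groups no shared replicate numbers. Igf1r had the fewest reads of the 10, 76 to 200, and its spread between libraries, a coefficient of variation of 36.7% in knockout and 43.3% in vehicle libraries, was wider than the counting error of its smallest count.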

Other observations

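A few genes of the pathway were too scarce for the test, and their counts, noted after they were seen, are given as values. Insrr, the insulin receptor-related receptor, had 4, 6 and 9 reads in the knockout libraries, against 0, 0 and 1 in the vehicle libraries, where a count of 3 was the floor. Slc2a5, the fructose transporter GLUT5, had 6, 3 and 1 reads in the knockout libraries, against 9, 14 and 31 in the vehicle libraries. Its lowest vehicle library was thus above its highest knockout library, by 9 against 6 reads that are not scaled to library size. Of all genes tested, 6.48% lay wholly lower in knockout in CPM. The preproinsulin gene Ins2 had 2, 0 and 0 reads in the knockout libraries and 0 in each vehicle library. Grb7, the third member of the Grb10 and Grb14 family, had 8, 1 and 1 reads in knockout, against 2, 0 and 2 reads in vehicle libraries.

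Txnip, whose product limits glucose uptake, was the most abundant gene of the transport and phosphorylation group per length, with 158, 282 and 282 FPKM in the knockout libraries, against 231, 413 and 310 FPKM in the vehicle libraries. The groups overlapped, and the log2 fold change was -0.51 (SE 0.28; edgeR adjusted p = 0.712). Its relative Arrdc4 was at -0.62 (SE 0.26; edgeR adjusted p = 0.664). Hk2, the main muscle hexokinase, had 92.7, 102 and 123 FPKM in knockout, against 104, 124 and 99.3 FPKM in vehicle libraries. The groups overlapped at an estimated log2 difference of -0.14 (SE 0.21; edgeR adjusted p = 0.906). The far scarcer Hk1 was at 0.55 (SE 0.23; edgeR adjusted p = 0.651). All 4 of these genes were picked with their values in view.

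Leading genes of the cell type lists are given as mean FPKM over 3 libraries. Of the slow fibre markers, the myosin light chains Myl2 and Myl3 had 1731 and 1730 FPKM in knockout, against 339 and 317 FPKM in vehicle libraries, and the fast fibre troponin Tnnc2, beside Tnnt3, had 16066 FPKM in knockout against 20895 FPKM in vehicle libraries. The fat cell genes Cfd and Fabp4 had 91.5 and 88.3 FPKM in knockout, against 25.4 and 48.8 FPKM in vehicle libraries, and the macrophage genes Lyz2 and C1qb had 37.5 and 14.1 FPKM, against 18.4 and 5.20 FPKM. Of the connective tissue genes, Dcn and Dpt had 214 and 41.5 FPKM in knockout, against 166 and 31.4 FPKM in vehicle libraries. Endothelial Esam and Cdh5 had 15.8 and 14.5 FPKM in knockout, against 16.6 and 12.4 FPKM in vehicle libraries. The 7 red blood cell markers summed to 1555, 4609 and 719 FPKM in the knockout libraries, against 746, 4510 and 980 FPKM in the vehicle libraries. The globins Hbb-bs and Hbb-bt had 883 and 627 FPKM in knockout, against 720.1 and 501 FPKM in vehicle libraries, and the myelin gene Pmp22 had 24.0 FPKM in knockout, against 25.5 FPKM in vehicle libraries. The summed level of each of the 8 lists overlapped between the groups. Estimates were above 0 for 10 of 10 macrophage, 10 of 10 slow fibre, 7 of 7 tested adipocyte and 7 of 8 fibroblast markers. For endothelial and red blood cell markers it was 7 of 10 and 3 of 7. For fast fibre and Schwann cell markers it was 0 of 10 and 0 of 8. Over all genes 52.9% were above 0. Higher at unadjusted edgeR p below 0.05 were 7 macrophage, 6 adipocyte, 2 slow fibre and 1 fibroblast marker, against 4.02% of all genes. Lower was 1 endothelial marker, against 3.42%. The 8 adipocyte markers summed to 97.6 to 338 FPKM in knockout, against 62.3 to 111 FPKM in vehicle libraries. For the marker genes named in this paragraph edgeR adjusted p ran from 0.643 to 0.978, and for Cldn5, named earlier, it was 0.408.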
